A study of Mus musculus with 9 samples.

Results

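The genes described here encode the molecules of the mouse major histocompatibility complex (MHC) and the proteins that load them with peptide. They were chosen by name: all genes whose symbol begins with H2-, together with B2m, Tap1, Tap2, Tapbp, Cd74 and Ciita. This gave 45 genes, covered by 79 probes, of 19053 genes that had a probe. Of these, 32 belong to the class I pathway and 12 to the class II pathway. The remaining gene, H2-Ke6, is an older symbol of Hsd17b8, a dehydrogenase gene that lies within the complex and encodes no MHC molecule.

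RNA of 9 samples was hybridised to Illumina bead arrays, 3 samples in each of 3 groups, all from the reporter strain B6.129X1-Gt(ROSA)26Sor, allele tm1(EYFP)Cos/J, on the C57BL/6J background, in which Cre switches on a yellow fluorescent protein. The YFP-positive cardiomyocytes were sorted for YFP from the left ventricular apex 28 days after injection of isoproterenol (ISO), a beta-adrenergic agonist that at high dose damages the heart, in mice that had received a lentivirus carrying c-kit/Cre. The adult cardiomyocytes are described as normal. The cardiac stem cells (eCSCs) were c-kit positive and CD45 negative at isolation and were harvested at passage 4. The study asked how far the YFP-positive cells resemble adult cardiomyocytes and how far the eCSCs.

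The labels leave some limits. The sample titles call the YFP-positive cells in vitro, whereas the design text has them sorted from hearts, and the sources used here do not settle which holds. The ISO text, with a single injection of 200 mg per kg under the skin, stands in the protocol of every sample, so it is not settled whether mice of the other groups received it. No label says whether a group's 3 samples are different animals or cultures, so the p-values measure only how these samples scatter, and that scatter may be technical. Of the labels' cell types, the cardiomyocytes matched their markers: all 10 of a list with Myh6, Myl2 and Ttn were detected on every YFP-positive and adult array, and 8 of the 10 were on no eCSC array. Kit, which encodes c-kit, was undetected with all 3 of its probes on every eCSC array and every adult array, and its brightest probe stood at 8.24 ± 0.73 on the YFP-positive arrays (log2, SD, n = 3). The arrays each detected 15326 to 19048 of 45281 probes.

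Class I molecules are made by nearly all nucleated cells. A heavy chain pairs with beta-2-microglobulin and presents peptides that the proteasome cuts in the cytosol and the TAP transporter carries into the endoplasmic reticulum. Class II molecules are made chiefly by dendritic cells, macrophages and B cells: an alpha and a beta chain assemble with the invariant chain, and H2-DM later exchanges the remaining fragment of that chain for a peptide taken up from outside the cell. Interferon gamma raises the expression of both pathways in many cell types. In the heart, class II protein is known chiefly from resident macrophages and dendritic cells and from some endothelial cells.

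Signals were compared as log2 values after background correction and quantile normalization. A gene was called detected in a group when 1 probe was above the negative control beads (detection p under 0.05) on each array of that group. By this rule 13 of the 32 class I pathway genes were detected in YFP-positive cells, 12 in adult cells and 10 in eCSCs. Of the 12 class II pathway genes, 5 were detected in YFP-positive cells, 4 in adult cells and 3 in eCSCs. Detection in all 3 groups held for 10 class I genes, but for Cd74 alone in class II. Over all genes with a probe, 8960 were detected in YFP-positive cells, 7949 in adult cells and 8147 in eCSCs.

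**Figure D1:**
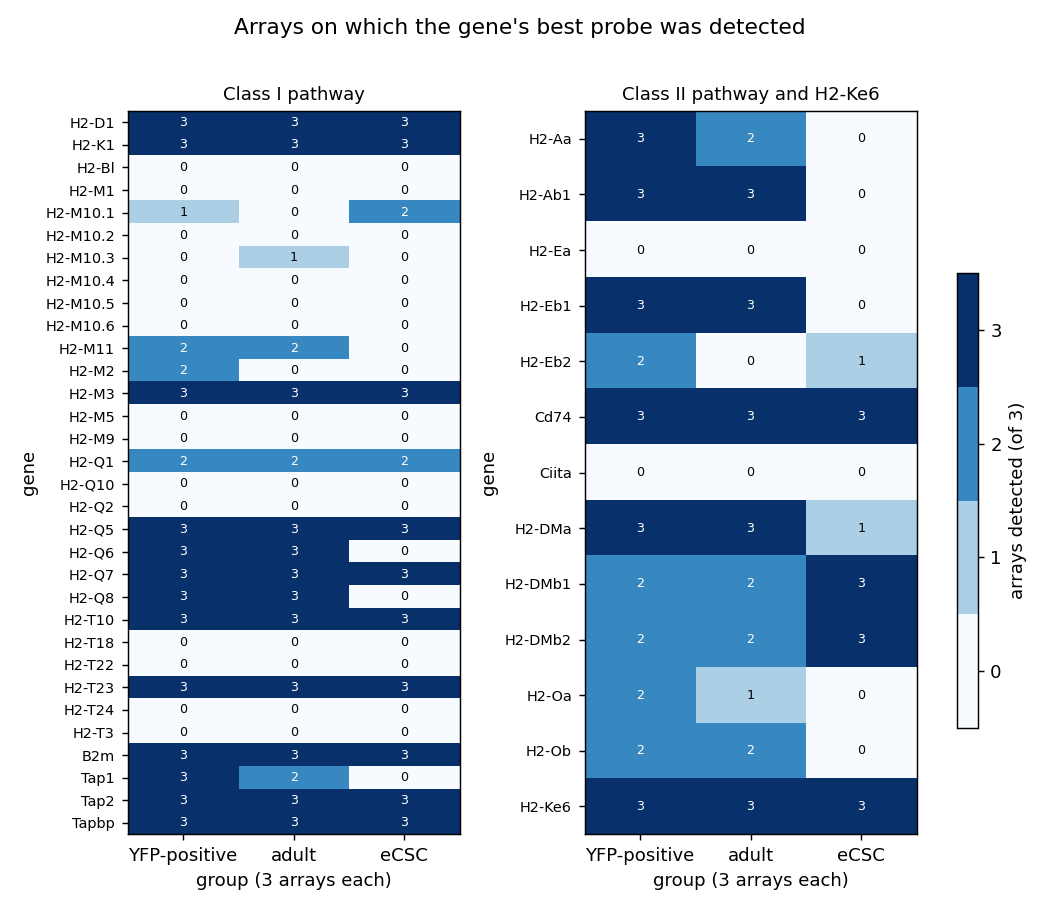
The grid gives, for each of the 45 genes (rows) and each group (columns), on how many of the 3 arrays the gene's most often detected probe was detected. H2-Aa, H2-Ab1, H2-Eb1, H2-Q6, H2-Q8 and Tap1 are at 3 arrays in YFP-positive cells and at 0 in eCSCs, whereas H2-DMb1 and H2-DMb2 reach 3 arrays in eCSCs only.

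Several members were not measurable. Of the 45 genes, 16 were on no array: H2-Bl, H2-M1, H2-M5, H2-M9, H2-M10.2, H2-M10.4, H2-M10.5, H2-M10.6, H2-Q2, H2-Q10, H2-T3, H2-T18, H2-T22 and H2-T24 of class I, and H2-Ea and Ciita of class II. H2-Ea encodes the alpha chain of the E molecule and is not transcribed in mice of the C57BL/6 haplotype. Ciita encodes the transactivator that switches class II genes on, and neither of its 2 probes was detected on any array, those with H2-Ab1 signal included. A further 8 genes were detected on scattered arrays but not on all 3 of any group: H2-M2, H2-M10.1, H2-M10.3, H2-M11, H2-Q1, H2-Eb2, H2-Oa and H2-Ob. The other 21 genes, 13 of class I, 7 of class II and H2-Ke6, were among the 10024 genes tested with limma. Many H2- genes are near-identical copies, so a probe for 1 H2-K, H2-D, H2-Q or H2-T gene, or for H2-DMb1 or H2-DMb2, may also bind RNA of another, and these assignments are uncertain.

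Most of the measurable class I genes were higher in both cardiomyocyte groups than in eCSCs, while the cardiomyocyte groups differed from each other in both directions. With limma, between YFP-positive and adult cells, 5 of 13 class I genes were called, 4 higher and 1 lower, where 50.5% of all genes tested were called, 22.8% higher and 27.7% lower. Between YFP-positive cells and eCSCs 10 of 13 were called, 9 higher and 1 lower, against 73.0% of all genes, 34.4% higher and 38.6% lower. Between adult cells and eCSCs 12 of 13 were called, 9 higher and 3 lower, against 75.2% of all genes, 35.8% higher and 39.4% lower. The share called was thus below, close to and above that of all genes in the 3 comparisons. The median log2 difference over the 13 genes was -0.09 for YFP-positive minus adult cells, 0.68 for YFP-positive cells minus eCSCs and 0.89 for adult cells minus eCSCs. With undetected genes set at their bound, the last of these medians were 0.57 and 0.64. Over all genes tested the median was -0.08, -0.10 and -0.05 in the same order. Genes entered these lists only if detected in some group, so the counts describe the 13 measurable genes and not the 32. H2-Q6, H2-Q8 and Tap1 entered only through cardiomyocytes, where they were high. With detection required on all 9 arrays, 7 of 10 class I genes were called between YFP-positive cells and eCSCs, 6 higher and 1 lower. Between adult cells and eCSCs 9 of 10 were, 6 higher and 3 lower. Of all genes so filtered 70.5% and 75.5% were called, with 41.2% and 45.8% of these calls higher. On the arrays themselves, 6 of 13 genes did not overlap between YFP-positive and adult cells, 11 of 13 between YFP-positive cells and eCSCs (8 higher, 3 lower) and 12 of 13 between adult cells and eCSCs (9 higher, 3 lower). The same held for 58.7%, 76.1% (35.9% higher, 40.2% lower) and 77.7% (37.2% higher, 40.5% lower) of all genes tested. The comparisons share arrays in pairs and are not independent. In such bulk samples fewer cells of a type and less RNA per cell cannot be told apart.

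**Figure D2:**
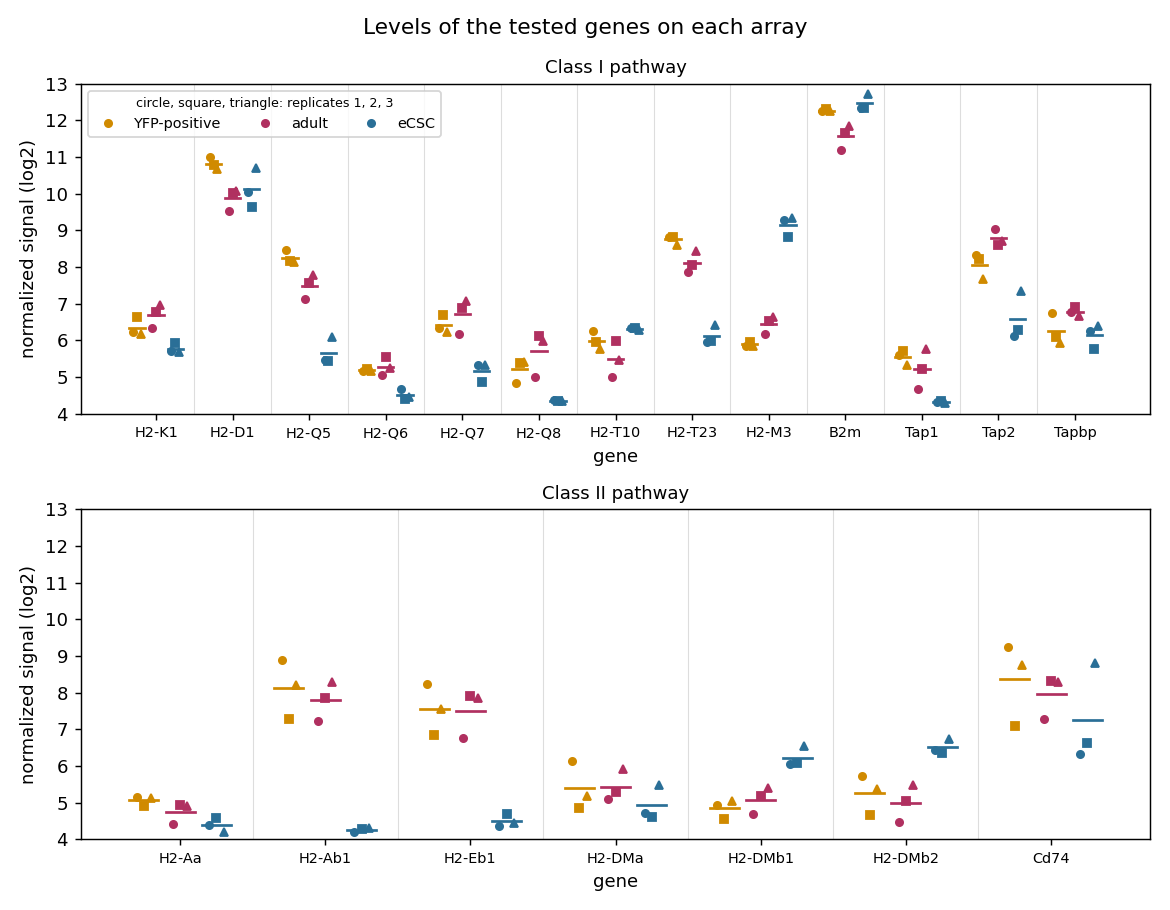
Each point is the normalized log2 signal of 1 gene on 1 array, for the 13 class I genes (upper panel) and the 7 class II genes (lower panel), with short lines at the group means. H2-T23, H2-Q5 and Tap2 are higher on all cardiomyocyte arrays than on any eCSC array, H2-M3 is lower, and H2-Ab1 and H2-Eb1 lie at the bottom of the range on the eCSC arrays.

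The classical class I genes H2-D1 and H2-K1 encode heavy chains that present peptides to cytotoxic T cells. H2-D1 stood at 10.995, 10.77 and 10.67 on the YFP-positive arrays, at 9.53, 10.02 and 10.08 on the adult arrays and at 10.05, 9.64 and 10.70 on the eCSC arrays. All 3 YFP-positive arrays were above all adult arrays, by 0.94 ± 0.25 (SE, adjusted p = 0.00605), a 1.92-fold difference. Over eCSCs the difference was 0.68 ± 0.25 (adjusted p = 0.0218), the groups overlapped, and under median scaling the value turned to -0.04 (adjusted p = 0.917). Without YFP-positive array 1, eCSC array 1 or eCSC array 2, and with no filter on dim probes, this call was lost, with a value of 0.44 without eCSC array 2 (adjusted p = 0.127). Adult cells and eCSCs did not differ in H2-D1 by the test, at -0.25 ± 0.25 (adjusted p = 0.361), while median scaling gave a called value of -1.04. A second H2-D1 probe gave 0.83 for YFP-positive minus adult cells. H2-K1 was dim, at 6.34 ± 0.25 in YFP-positive cells, 6.68 ± 0.32 in adult cells and 5.77 ± 0.14 in eCSCs (SD, n = 3 each), and its other 2 probes passed in no group. It was higher than in eCSCs in YFP-positive cells by 0.57 ± 0.20 (adjusted p = 0.0182) and in adult cells by 0.91 ± 0.20 (adjusted p = 0.000773). The first of these calls was lost without YFP-positive array 2, eCSC array 1 or eCSC array 3, with adjusted p from 0.0518 to 0.0772. Under median scaling both H2-K1 calls were lost, at 0.31 and 0.18, and without background correction the first was, at 0.26.

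Among the nonclassical class I genes, which show less variation between mouse strains, H2-T23 and H2-Q5 were the 2 with the largest rises over eCSCs. H2-T23 encodes the Qa-1 heavy chain, whose complexes are read by receptors of natural killer cells. It stood at 8.83, 8.82 and 8.61 on the YFP-positive arrays, at 7.88, 8.05 and 8.44 on the adult arrays and at 5.96, 5.97 and 6.41 on the eCSC arrays. YFP-positive arrays were highest and eCSC arrays lowest, with no overlap between any of the groups. YFP-positive cells exceeded adult cells by 0.63 ± 0.19 (adjusted p = 0.0144) and eCSCs by 2.64 ± 0.19 (adjusted p = 2.12e-08), and adult cells exceeded eCSCs by 2.00 ± 0.19 (adjusted p = 2.94e-07). The difference between the cardiomyocyte groups lost its call without adult array 1 (0.51, adjusted p = 0.0638) and with either of 2 other H2-T23 probes (0.46 and 0.55). H2-Q5, which the RefSeq gene table lists as a transcribed pseudogene, stood at 8.47, 8.16 and 8.13 on the YFP-positive arrays, at 7.12, 7.57 and 7.78 on the adult arrays and at 5.45, 5.44 and 6.09 on the eCSC arrays. Its groups were also fully separate, with YFP-positive cells 0.76 ± 0.22 above adult cells (adjusted p = 0.0108) and 2.60 ± 0.22 above eCSCs (adjusted p = 1.04e-07), and adult cells 1.83 ± 0.22 above eCSCs (adjusted p = 3.05e-06). The first of these calls was lost without adult array 1 (0.58, adjusted p = 0.055). The H2-Q5 signal rested on 1 probe, as its other 2 probes were detected on no array.

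H2-Q6, H2-Q7 and H2-Q8, further genes of the Q region, were higher in both cardiomyocyte groups than in eCSCs and did not pass the test between the cardiomyocyte groups. H2-Q7, a Qa-2 heavy chain gene, averaged 6.42 ± 0.25 in YFP-positive cells, 6.71 ± 0.47 in adult cells and 5.17 ± 0.27 in eCSCs. H2-Q6 and H2-Q8 were undetected on all eCSC arrays, so only bounds can be given. H2-Q6 was at least 1.36-fold higher in YFP-positive cells and at least 1.45-fold higher in adult cells than in eCSCs, and the adult call was lost under median scaling (0.46, adjusted p = 0.0707). H2-Q8 was at least 1.38-fold higher in YFP-positive cells and at least 1.95-fold higher in adult cells. For YFP-positive minus adult cells the H2-Q8 difference of -0.49 became a call without adult array 1 (-0.85, adjusted p = 0.00519) and with array weights (-0.63, adjusted p = 0.0379). Such bounds set the bright group's mean against the higher of the dim probe's signal and the lowest detected signal on each array. Where an adjusted p stands beside a bound below, it is that of the measured log2 difference in limma. The bound itself was not tested.

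Not all class I genes followed this direction. H2-M3, which presents peptides that begin with formylmethionine, as bacterial and mitochondrial proteins do, was high in eCSCs. It stood at 5.86, 5.96 and 5.85 on the YFP-positive arrays, at 6.16, 6.52 and 6.62 on the adult arrays and at 9.29, 8.81 and 9.34 on the eCSC arrays. The eCSC arrays were apart from all others by more than 2 log2 units. H2-M3 was 9.54-fold lower in YFP-positive cells (difference -3.25 ± 0.19, adjusted p = 1.62e-09) and 6.55-fold lower in adult cells (difference -2.71 ± 0.19, adjusted p = 8.78e-09) than in eCSCs. It was also lower in YFP-positive than in adult cells, by -0.54 ± 0.19 (adjusted p = 0.0277). That call was lost without background correction (-0.26), with the other normexp setting (-0.33), under median scaling (-0.03), in the authors' series matrix (-0.27) and without YFP-positive array 1 or 3 or adult array 2 or 3 (-0.45 to -0.53). H2-T10, also listed as a transcribed pseudogene, averaged 5.99 ± 0.24 in YFP-positive cells, 5.48 ± 0.49 in adult cells and 6.32 ± 0.04 in eCSCs. Of its differences only that of adult cells minus eCSCs was called, at -0.83 ± 0.23 (adjusted p = 0.00385). YFP-positive minus adult cells came to 0.50, which became a call without adult array 2 (0.76, adjusted p = 0.0119) and under median scaling (0.87, adjusted p = 0.0269).

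B2m, the light chain shared by all class I molecules, stood at 12.24, 12.30 and 12.24 on the YFP-positive arrays, at 11.20, 11.67 and 11.84 on the adult arrays and at 12.35, 12.32 and 12.72 on the eCSC arrays. Adult cells were lowest on every array. B2m was 1.62-fold higher in YFP-positive than in adult cells (0.69 ± 0.19, adjusted p = 0.00835) and 1.86-fold lower in adult cells than in eCSCs (-0.89 ± 0.19, adjusted p = 0.000701). YFP-positive cells and eCSCs differed by -0.20 ± 0.19 (adjusted p = 0.361), although the 3 YFP-positive arrays lay below the 3 eCSC arrays, and median scaling turned this into a called difference of -0.69 (adjusted p = 0.0272). A second B2m probe gave 0.66 and -0.84 for the 2 called differences.

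Tap1 and Tap2 encode the subunits of the peptide transporter, and Tapbp encodes tapasin, which holds empty class I molecules at it. Tap1 stood at 5.60, 5.70 and 5.34 on the YFP-positive arrays, at 4.68, 5.22 and 5.76 on the adult arrays, of which 2 were detected, and at 4.33, 4.36 and 4.29 on the eCSC arrays, where it was undetected. It was at least 1.74-fold higher in YFP-positive cells (adjusted p = 0.000272) and at least 1.39-fold higher in adult cells (adjusted p = 0.0028) than in eCSCs. Tap2 stood at 8.32, 8.21 and 7.67 on the YFP-positive arrays, at 9.03, 8.61 and 8.70 on the adult arrays and at 6.11, 6.28 and 7.35 on the eCSC arrays. All cardiomyocyte arrays were above all eCSC arrays, and eCSC array 3 was more than 1 log2 unit above the other eCSC arrays. Tap2 was 2.81-fold higher in YFP-positive cells (1.49 ± 0.28, adjusted p = 0.000292) and 4.60-fold higher in adult cells (2.20 ± 0.28, adjusted p = 6.13e-06) than in eCSCs. Between YFP-positive and adult cells the Tap2 difference was -0.71 ± 0.28 with no overlap and an adjusted p of 0.0501, over the threshold by less than its rounding to 2 digits, and 8 of the alternative settings brought it under the threshold. Tapbp averaged 6.25 ± 0.44 in YFP-positive cells, 6.78 ± 0.12 in adult cells and 6.13 ± 0.34 in eCSCs. It was called only in adult cells minus eCSCs, at 0.64 ± 0.23 (adjusted p = 0.0199), a value that turned to -0.14 under median scaling and lost its call without adult array 2 (0.58) or eCSC array 2 (0.45) and with no filter on dim probes (adjusted p = 0.0563). Its second probe put YFP-positive cells below adult cells by -1.18 (adjusted p = 0.000219), whereas the main probe gave -0.52 (adjusted p = 0.07).

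H2-T23 was higher and H2-M3 lower in both cardiomyocyte groups than in eCSCs. B2m was lower in adult cells than in eCSCs and was not called for YFP-positive cells minus eCSCs. For B2m, H2-T23 and H2-M3 the 160 bases before the annotated start are printed. They come from RefSeq's promoter table of GRCm38.p6 and are read 5′ to 3′ on each gene's own strand. The windows are chr2:122147527-122147686 on the plus strand, chr17:36032702-36032861 on the minus strand and chr17:37270074-37270233 on the plus strand. Capitals mark matches, on either strand, to a pair of GAAA with any 2 bases between them, the core of the interferon-stimulated response element, and to GATTGG, the Y box (an inverted CCAAT box).
B2m: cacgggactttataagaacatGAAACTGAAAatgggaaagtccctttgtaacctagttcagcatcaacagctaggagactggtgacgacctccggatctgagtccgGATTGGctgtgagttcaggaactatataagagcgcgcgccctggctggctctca
H2-T23: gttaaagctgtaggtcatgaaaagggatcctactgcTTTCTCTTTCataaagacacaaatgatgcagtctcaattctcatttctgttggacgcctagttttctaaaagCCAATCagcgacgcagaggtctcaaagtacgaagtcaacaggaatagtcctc
H2-M3: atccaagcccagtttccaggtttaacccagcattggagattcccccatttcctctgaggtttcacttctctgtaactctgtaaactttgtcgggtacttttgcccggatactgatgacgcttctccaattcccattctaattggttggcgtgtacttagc

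B2m held the GAAA pair with its first base at position -139 and the Y box at -54, and H2-T23 held them at -124 and -52. H2-M3 held neither in its 250 bases before the start. H2-K1, H2-Q6, H2-Q7 and Tap1, called higher in both cardiomyocyte groups than in eCSCs, held no GAAA pair in their windows either. Promoters were found in the table for 33 of the 45 genes, 15 of them among the 21 tested. In these windows of 250 bases the GAAA pair stood before 3 of 24 class I genes (B2m, H2-T23 and the undetected H2-T22) and 0 of 8 class II genes, against 3.04% of 27025 promoters in the table. The Y box stood before 16 of 24 class I and 7 of 8 class II genes, against 15.1% of all. A match describes letters only and is not evidence of binding, and the absence of one says only that these letters were not in the window. Only these patterns were searched, so an element that differs from them in a base was not marked, in H2-M3 or elsewhere.

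Class II genes were split: the beta chains of the A and E molecules, H2-Ab1 and H2-Eb1, were high in both cardiomyocyte groups and undetected in eCSCs, and the H2-DM beta chain genes were higher in eCSCs. None of the 7 tested class II genes was called between YFP-positive and adult cells with limma, where 50.5% of all genes were, and none had an unadjusted p under 0.05. Between YFP-positive cells and eCSCs 5 of 7 were called, 3 higher and 2 lower, where 73.0% of all genes were. Between adult cells and eCSCs 4 of 7 were called, 2 higher and 2 lower, where 75.2% of all genes were. These shares lie near the background or below it. The called genes entered the test only through groups where they were high, so the filter partly shaped these counts. H2-Aa, H2-Ab1 and H2-Eb1 entered through cardiomyocytes, and H2-DMb1 and H2-DMb2 through eCSCs. With detection required on all 9 arrays, 1 class II gene could be tested and 0 were called in either comparison with eCSCs. The median log2 differences over the 7 genes were 0.25, 0.68 and 0.50 for the 3 comparisons, with -0.08, -0.10 and -0.05 over all genes tested, and with undetected genes at their bound the value for YFP-positive cells minus eCSCs was 0.45. Without adult array 3 the last of the class II medians fell to 0.29, without eCSC array 3 it was 0.77, and without YFP-positive array 1 or adult array 1 the first was -0.04 or -0.0045.

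H2-Ab1, the beta chain of the A molecule, stood at 8.89, 7.29 and 8.22 on the YFP-positive arrays, at 7.23, 7.86 and 8.28 on the adult arrays and at 4.21, 4.27 and 4.31 on the eCSC arrays, where it was undetected. The cardiomyocyte groups overlapped, and every array of both was far above every eCSC array. H2-Ab1 was at least 10.48-fold higher in YFP-positive cells (adjusted p = 1.13e-07) and at least 8.26-fold higher in adult cells (adjusted p = 2.23e-07) than in eCSCs. Its other 2 probes were likewise undetected on all eCSC arrays and were called higher in both cardiomyocyte groups. YFP-positive minus adult cells came to 0.34 ± 0.33 (adjusted p = 0.414), and to 0.76 with a call (adjusted p = 0.037) without YFP-positive array 2, the lowest of its group. H2-Eb1, the beta chain of the E molecule, stood at 8.23, 6.85 and 7.55 on the YFP-positive arrays, at 6.77, 7.90 and 7.84 on the adult arrays and at 4.36, 4.70 and 4.44 on the eCSC arrays, again undetected. It was at least 6.96-fold higher in YFP-positive cells (adjusted p = 1.34e-06) and at least 6.77-fold higher in adult cells (adjusted p = 1.16e-06) than in eCSCs. H2-Aa, the alpha chain of the A molecule, was near background, at 5.16, 4.92 and 5.14 on the YFP-positive arrays, at 4.41, 4.95 and 4.91 on the adult arrays, of which 2 were detected, and at 4.40, 4.58 and 4.21 on the undetected eCSC arrays. It was at least 1.26-fold higher in YFP-positive cells than in eCSCs (adjusted p = 0.00476) and was not called for adult cells minus eCSCs (adjusted p = 0.093).

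Cd74, the invariant chain, was the class II gene with the widest spread within the YFP-positive and the eCSC groups (SD 1.13 and 1.36). It stood at 9.26, 7.10 and 8.75 on the YFP-positive arrays, at 7.30, 8.31 and 8.30 on the adult arrays and at 6.34, 6.63 and 8.82 on the eCSC arrays. YFP-positive array 2 was low and eCSC array 3 was high for their groups, so that the 3 groups overlapped. No Cd74 difference was called, with 1.11 ± 0.59 for YFP-positive cells minus eCSCs (adjusted p = 0.107) and 0.70 ± 0.59 for adult cells minus eCSCs (adjusted p = 0.295). Without eCSC array 3 both were called, at 1.88 (adjusted p = 0.00604) and 1.48 (adjusted p = 0.0206), and without YFP-positive array 2 the first was, at 1.74 (adjusted p = 0.0163). With 2 other Cd74 probes the first difference was 1.40 and 0.75, both called, and the second was 0.95, not called, and 1.36, called (adjusted p = 0.000664). YFP-positive minus adult cells came to 0.40 ± 0.59, and 1 of the other probes gave -0.61, neither called. H2-Ab1 and H2-Eb1 stayed undetected on eCSC array 3.

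H2-DMa and H2-DMb1 or H2-DMb2 encode the alpha and beta chains of H2-DM, the exchanger of class II peptides. H2-DMb1 stood at 4.94, 4.57 and 5.05 on the YFP-positive arrays and at 4.69, 5.17 and 5.40 on the adult arrays, 2 of 3 detected in each group, and at 6.05, 6.07 and 6.55 on the eCSC arrays, all detected. H2-DMb2 stood at 5.73, 4.67 and 5.37 on the YFP-positive arrays and at 4.48, 5.05 and 5.47 on the adult arrays, again 2 of 3 detected in each, and at 6.44, 6.35 and 6.75 on the eCSC arrays. For both genes every eCSC array was above every cardiomyocyte array. H2-DMb1 was 2.58-fold lower in YFP-positive cells (-1.37 ± 0.22, adjusted p = 6.07e-05) and 2.20-fold lower in adult cells (-1.14 ± 0.22, adjusted p = 0.000275) than in eCSCs. H2-DMb2 was 2.39-fold lower in YFP-positive cells (-1.26 ± 0.28, adjusted p = 0.00098) and 2.85-fold lower in adult cells (-1.51 ± 0.28, adjusted p = 0.000183). H2-DMa averaged 5.39 ± 0.67 in YFP-positive cells, 5.44 ± 0.42 in adult cells and 4.94 ± 0.48 in eCSCs, where 1 array of 3 was detected, and passed no test. The 2 beta chain genes are close copies, so their probes may not give separate readings.

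**Figure D3:**
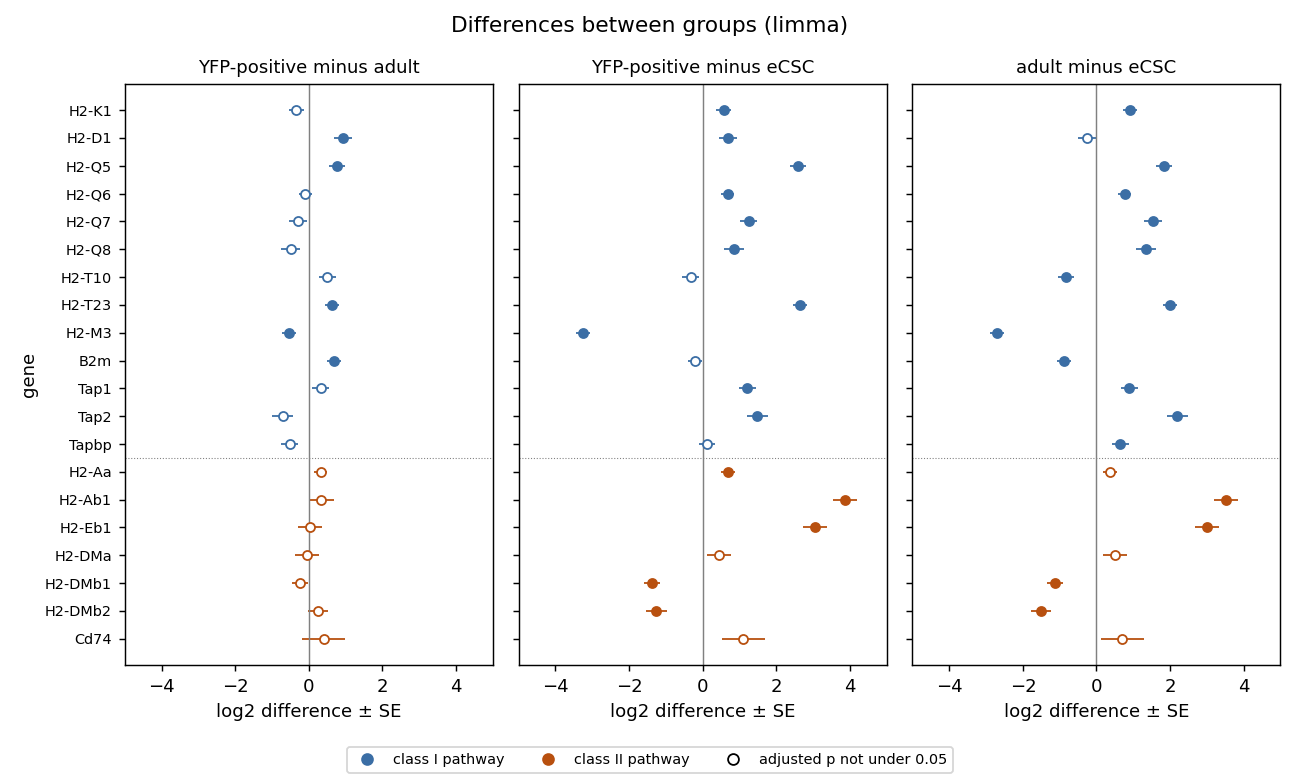
Points give the log2 difference of each of the 20 class I and class II genes tested in limma, with bars of 1 standard error, for YFP-positive minus adult cells, YFP-positive cells minus eCSCs and adult cells minus eCSCs, and open points have an adjusted p of 0.05 or more. H2-Ab1 and H2-Eb1 lie farthest to the right against eCSCs, H2-M3 farthest to the left, and H2-DMb1 and H2-DMb2 are the only class II genes to the left with a call.

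The promoter windows of H2-Eb1, H2-Aa and H2-DMb1 are shown because H2-Eb1 and H2-Aa were higher and H2-DMb1 was lower in YFP-positive cells than in eCSCs. They are chr17:34305707-34305866 on the plus strand, chr17:34287824-34287983 on the minus strand and chr17:34153031-34153190 on the plus strand, with the same source and marking, and with AGCAAC, the core of the X box to which regulatory factor X binds, marked as well.
H2-Eb1: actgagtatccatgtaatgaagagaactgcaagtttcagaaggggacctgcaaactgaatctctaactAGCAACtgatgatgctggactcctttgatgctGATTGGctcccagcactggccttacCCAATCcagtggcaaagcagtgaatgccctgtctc
H2-Aa: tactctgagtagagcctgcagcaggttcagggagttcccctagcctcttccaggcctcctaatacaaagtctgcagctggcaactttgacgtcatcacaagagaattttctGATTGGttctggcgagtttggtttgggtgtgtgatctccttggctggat
H2-DMb1: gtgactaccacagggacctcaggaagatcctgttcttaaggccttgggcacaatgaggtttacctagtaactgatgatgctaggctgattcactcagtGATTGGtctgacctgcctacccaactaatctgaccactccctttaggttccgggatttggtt

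H2-Eb1 held AGCAAC with its first base at position -92 and a Y box at -60, with a second Y box match nearer the start. H2-Aa held the Y box at -49 and H2-DMb1 held it at -62, and neither held the exact string AGCAAC. Only this exact string was searched, so an X box that differs from it in a base was not marked. The string AGCAAC stood in the 250-base windows of 4 of 8 class II genes and 0 of 24 class I genes, against 12.3% of all 27025 promoters.

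Class I and class II were set side by side on each array by the median difference of their tested genes from the eCSC mean. For class I this was 0.66, 0.86 and 0.67 on the YFP-positive arrays, 0.56, 1.00 and 1.18 on the adult arrays and 0.0025, -0.14 and 0.19 on the eCSC arrays. For class II it was 1.21, -0.08 and 0.75 on the YFP-positive arrays, 0.03, 0.56 and 0.98 on the adult arrays and -0.14, -0.15 and 0.24 on the eCSC arrays. The class I median thus separated every cardiomyocyte array from every eCSC array. The class II median did not, since YFP-positive array 2 and adult array 1 lay within the eCSC range. This reference centres the eCSC arrays, and H2-Q6, H2-Q8 and Tap1 of class I entered only through cardiomyocytes. The class II median mixes directions: H2-Ab1 and H2-Eb1 were each higher on every cardiomyocyte array than on any eCSC array, and H2-DMb1 and H2-DMb2 lower. YFP-positive array 2 was the highest of its group in class I and the lowest in class II. The difference between the classes was not tested.

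H2-Ke6, the gene of neither class, averaged 10.79 ± 0.09 in YFP-positive cells, 11.32 ± 0.10 in adult cells and 8.81 ± 0.34 in eCSCs. It was 3.94-fold higher in YFP-positive cells (adjusted p = 2.98e-07) and 5.69-fold higher in adult cells (adjusted p = 1.66e-08) than in eCSCs. Its difference between YFP-positive and adult cells, -0.53 ± 0.19 (adjusted p = 0.0284), was lost under median scaling and without YFP-positive array 1 or 3 or adult array 1 or 2, with adjusted p from 0.0547 to 0.153.

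Genes that prepare peptides for class I were measured beside the MHC genes: 12 were tested. Of these, 2 were higher and 1 lower in YFP-positive than in adult cells, 3 higher and 4 lower in YFP-positive cells than in eCSCs, and 6 higher and 5 lower in adult cells than in eCSCs. Over all genes tested 50.5%, 73.0% and 75.2% were called in these comparisons, with 22.8%, 34.4% and 35.8% higher. Psmb8, a catalytic subunit of the immunoproteasome, stood at 9.03, 7.90 and 7.88 on the YFP-positive arrays, at 7.16, 7.31 and 7.54 on the adult arrays and at 4.42, 4.46 and 4.34 on the eCSC arrays, where it was undetected. Its groups did not overlap, and it was at least 11.5-fold higher in YFP-positive cells (adjusted p = 7.6e-09) and at least 6.02-fold higher in adult cells (adjusted p = 1.12e-07) than in eCSCs. Psmb9, a second such subunit, was higher than in eCSCs, of which 1 array of 3 detected it, by 2.05 in YFP-positive and 2.24 in adult cells, and Psme1, a subunit of the proteasome activator PA28, by 1.95 and 2.20. Sec61a1, part of the channel into the endoplasmic reticulum, was lower in adult cells than in eCSCs (-1.78, adjusted p = 1.86e-06). Nlrc5, the transactivator of class I genes, was on no eCSC array. In each cardiomyocyte group it was detected, but not on all 3 arrays, so it was not tested.

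For the processing and regulation of class II, 12 genes were tested: 3 were higher and 3 lower in YFP-positive than in adult cells, 5 higher and 4 lower in YFP-positive cells than in eCSCs, and 4 higher and 3 lower in adult cells than in eCSCs. These 6, 9 and 7 calls of 12 stand beside 50.5%, 73.0% and 75.2% of all genes tested. Ifi30, a lysosomal thiol reductase that unfolds antigens, was like the H2-DM beta chains in being high in eCSCs, at 6.72 ± 0.38 in YFP-positive cells, 5.43 ± 0.47 in adult cells and 7.81 ± 0.29 in eCSCs (SD, n = 3 each). Nfyb, a subunit of the factor that binds the Y box, averaged 8.26 ± 0.16 in YFP-positive cells, 7.50 ± 0.12 in adult cells and 9.23 ± 0.28 in eCSCs, and Nfyc, a further subunit, 11.27 ± 0.16, 10.93 ± 0.17 and 10.35 ± 0.09 in the same order. The eCSCs were thus highest for Nfyb and lowest for Nfyc. Ctsb, a lysosomal protease, was higher than in eCSCs in YFP-positive cells by 1.14 and in adult cells by 1.29. Rfx5, part of the factor that binds the X box, was on no array.

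Class I-like molecules, built on the same fold but with other ligands, were all higher in cardiomyocytes than in eCSCs where tested (3 of 3 in YFP-positive and 3 of 3 in adult cells, beside 34.4% and 35.8% of all genes tested). Hfe, which regulates iron uptake, averaged 7.70 ± 0.44 in YFP-positive cells, 8.91 ± 0.30 in adult cells and 5.79 ± 0.31 in eCSCs. Fcgrt, the heavy chain of the neonatal Fc receptor, averaged 11.07 ± 0.17, 11.38 ± 0.24 and 8.56 ± 0.51 in the same order. Cd1d1, which presents lipids to natural killer T cells, was undetected in eCSCs and at least 4.94-fold higher in YFP-positive and at least 2.28-fold higher in adult cells. It was also higher in YFP-positive than in adult cells, by 1.11 (adjusted p = 0.00205), and Hfe was lower, by -1.21 (adjusted p = 0.00102).

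The 15 tested genes of interferon gamma signalling were mostly higher in YFP-positive cells: 10 higher and 1 lower against adult cells, with a median log2 difference of 0.87 beside -0.08 over all genes, and 12 higher and 2 lower against eCSCs, with a median of 1.61 beside -0.10. Between adult cells and eCSCs 8 were higher and 4 lower, with a median of 0.51 beside -0.05. Of all genes tested 22.8%, 34.4% and 35.8% were higher and 27.7%, 38.6% and 39.4% lower in the 3 comparisons. Irf1, an interferon-induced activator of class I genes, stood at 11.69, 11.22 and 10.76 on the YFP-positive arrays, at 8.56, 7.86 and 8.60 on the adult arrays and at 10.82, 10.15 and 10.16 on the eCSC arrays. The adult arrays were the lowest, and YFP-positive cells exceeded adult cells by 2.88 (adjusted p = 1.57e-06). Gbp2, an interferon-induced GTPase, averaged 9.12 ± 0.30 in YFP-positive cells, 7.72 ± 0.35 in adult cells and 5.74 ± 0.22 in eCSCs, the same order as H2-T23 and H2-Q5. Socs3, an inhibitor of cytokine receptor signalling, averaged 10.31 ± 0.11 in YFP-positive cells, 5.42 ± 0.36 in adult cells and 8.16 ± 0.52 in eCSCs. Igtp, a further interferon-induced GTPase, was higher than in eCSCs, of which 1 array of 3 detected it, by 3.86 in YFP-positive cells and by 3.84 in adult cells.

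Of 4 tested genes of the costimulation list, 2 were higher in YFP-positive than in adult cells and none was lower, and 3 were higher in each cardiomyocyte group than in eCSCs. Of all genes tested 22.8% were higher between the cardiomyocyte groups, and 34.4% in YFP-positive and 35.8% in adult cells over eCSCs. Icam1, an adhesion molecule of the contact with T cells that endothelium also makes, stood at 10.18, 9.27 and 10.16 on the YFP-positive arrays, at 6.25, 6.07 and 5.62 on the adult arrays and at 4.50, 4.34 and 4.47 on the undetected eCSC arrays. It was higher in YFP-positive than in adult cells by 3.89 (adjusted p = 2.78e-08) and at least 34.8-fold higher than in eCSCs. Cd40, a receptor through which T cells activate antigen-presenting cells, averaged 6.97 ± 0.11 in YFP-positive cells, 5.11 ± 0.05 in adult cells and 4.40 ± 0.11 in eCSCs, where it was undetected. Cd274 averaged 7.27 ± 0.14 in YFP-positive cells, 7.19 ± 0.45 in adult cells and 6.49 ± 0.14 in eCSCs. Cd86 was on no eCSC array and, in each cardiomyocyte group, was detected but not on all arrays, so it was not tested. Pdcd1lg2 and Tnfsf4 were on no array. Cd80 was on no cardiomyocyte array and on some but not all eCSC arrays.

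Markers of macrophages and dendritic cells also differed between the groups. Of 22 macrophage and dendritic markers with a probe, 13 were detected in YFP-positive cells, 9 in adult cells and 1 in eCSCs. Their summed normalized signal over 13 tested genes was 6080, 2599 and 4008 on the YFP-positive arrays, 936, 1292 and 1284 on the adult arrays and 486, 539 and 408 on the eCSC arrays. On eCSC arrays 18 of the 22 were undetected throughout, among them Lyz2, C1qa, C1qb, C1qc, Adgre1, Itgam and Tyrobp. Cd14, the 1 detected in eCSCs, averaged 7.74 there, above 6.77 in YFP-positive and 4.89 in adult cells. The dendritic cell markers Itgax, Xcr1, Clec9a and Cd209a were on no array of any group, while Zbtb46 was detected on all 3 YFP-positive arrays (mean 5.21) and no other, and Flt3 on some YFP-positive and adult arrays. Of the 13 tested, 10 were higher in YFP-positive than in adult cells, where 22.8% of all genes tested were and where no class II gene was called. YFP-positive array 2 had the lowest sum of its group and also the lowest H2-Ab1, H2-Eb1 and Cd74, and adult array 1 had the lowest of its group in all 4 of these. This was not particular to these genes. Adult array 1 was also lowest of its group in the endothelial (4417), fibroblast (1863) and cardiomyocyte (166099) sums. YFP-positive array 2 was lowest of its group in the fibroblast sum (7690) and highest in the cardiomyocyte sum (159328). Single markers were divided on YFP-positive array 2. Laptm5, Lyz2, C1qb, C1qc, Cd14, Fcer1g, Aif1, Tyrobp and Zbtb46 were lowest there, C1qa and Csf1r were highest, and Adgre1 and Mrc1 lay between. The brightest of the 13 on every YFP-positive array was Laptm5. Laptm5, a lysosomal protein of blood cells, stood at 11.91, 9.59 and 10.76 on the YFP-positive arrays, at 7.45, 7.60 and 7.82 on the adult arrays and at 4.22, 4.19 and 4.31 on the undetected eCSC arrays. The part of these cells in the class II levels was not tested.

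**Figure D4:**
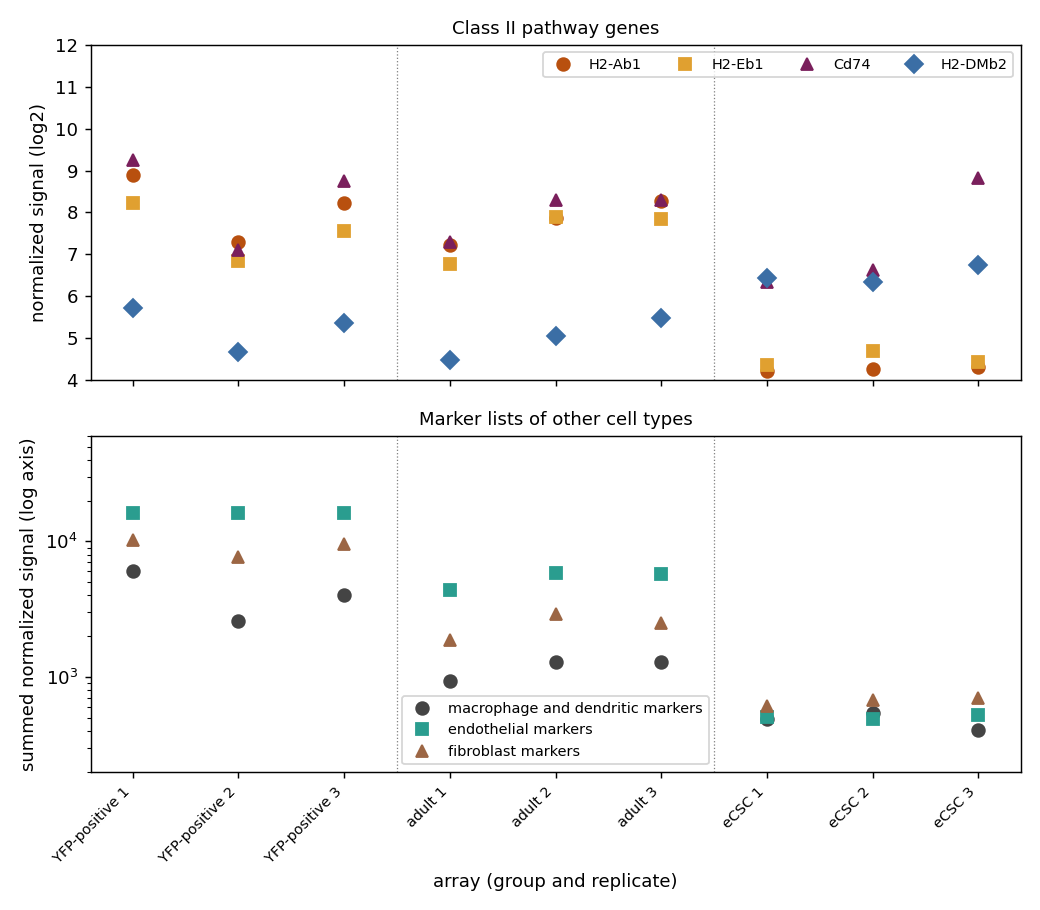
The upper panel gives the normalized log2 signal of H2-Ab1, H2-Eb1, Cd74 and H2-DMb2 on each of the 9 arrays, and the lower panel the summed normalized signal of 3 marker lists on a log axis. YFP-positive array 2 and adult array 1 are the lowest of their groups in H2-Ab1, H2-Eb1, Cd74 and the macrophage and dendritic sum. Both are also lowest in the fibroblast sum. Cd74 on eCSC array 3 is more than 2 log2 units above the other eCSC arrays.

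The summed signals of endothelial and of fibroblast markers were highest in YFP-positive cells and lowest in eCSCs. The summed signal of 11 endothelial markers was 16076 to 16114 on the YFP-positive arrays, 4417 to 5816 on the adult arrays and 487 to 524 on the eCSC arrays, with 10, 11 and 2 of 12 detected. On the eCSC arrays 8 of the 12 were undetected, among them Pecam1, Cdh5 and Tie1. The sum of 9 fibroblast markers was 7690 to 10250 on the YFP-positive arrays, 1863 to 2905 on the adult arrays and 611 to 703 on the eCSC arrays, with 8, 4 and 5 of 10 detected. Most of the adult fibroblast sum was Dcn, which averaged 10.96 in adult cells and 4.71 in eCSCs. The order of adult cells above eCSCs in this sum rested on Dcn. Of the tested markers, 10 of 11 endothelial and 8 of 9 fibroblast genes were higher in YFP-positive than in adult cells, where 22.8% of all genes tested were. The endothelial marker Kdr was called lower, at 4.53 in YFP-positive and 5.32 in adult cells, and the fibroblast marker Ddr2 was not called. Between adult cells and eCSCs the fibroblast genes were split, with 4 higher and 4 lower, Col1a1 among the lower (-3.17), and a median of -0.19, where 35.8% of all genes were higher and 39.4% lower. Lymphocyte markers were at or near background, with 1 of 9 detected in YFP-positive cells (Cd79b), 0 of 9 in adult cells and 0 of 9 in eCSCs. Cardiomyocyte markers summed to 136865 to 159328 on the YFP-positive arrays, 166099 to 178574 on the adult arrays and 197 to 204 on the eCSC arrays. The part of endothelial cells and fibroblasts in the class I and class II levels was not tested.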

How the data were processed

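RNA of 9 samples was read on Illumina mouse bead arrays. The authors deposited a probe table of intensities that were neither normalized nor background-subtracted, as medians of 93.6 to 117.9 show. The column after each intensity is a detection p-value per the file headers, but it rises with the signal and is a fraction, namely how many of 936 negative control beads a probe outshone (100% of values were whole shares of them, tolerance 0.01). Detection p is 1 minus this fraction. A series matrix with values close to log2 was also deposited by the authors. Per the submitters' processing notes lumi 2.10.0 and R 2.15.3 were used. How the matrix was transformed and normalized is not given in the sources used here. Its 9 columns each followed their own sample best. Gene-level tables were not used, and no slide was given.

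Background was removed by normexp from the detection p-values, then came an offset of 16, quantile normalization and log2 (neqc, limma 3.58.1, R 4.3.3, version 1.17.8 of data.table). Symbols of 34885 of 45281 probes came from the platform annotation, updated through RefSeq's gene annotation (GRCm38.p6), and 18 probes with several symbols and 10378 with none were left out. A probe entered if a whole group of 3 arrays detected it, the brightest such probe represented its gene, and 10024 genes remained. A limma model with a mean per group was fitted to all 9 arrays, two-sided, with Benjamini-Hochberg adjustment over all genes and a threshold of 0.05. The model was tested on simulated data. Figures used Python 3.11.15, matplotlib 3.10.9 and pandas 2.3.3. The number of arrays limits the precision.

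Every gene of the rule was described: those detected in a group with their levels, the others by name. Other lists were given by their counts and by up to 4 members with the smallest adjusted p, of which the text names some. The members and lists were chosen with earlier results of these data known. Alternatives were no background correction, normexp with an offset of 50, median scaling, other filters, other probes, array weights, the series matrix, a replicate block and leaving out each array. The other-probe fits were chosen after seeing the data.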

Additional observations from a re-analysis of the deposited data

How the results depend on the processing

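Of the alternative values for single genes, 1072 kept their direction or stayed uncalled as reported, 31 lost a call, 35 gained one and 2 reversed, both under median scaling: H2-D1 in YFP-positive cells minus eCSCs (-0.041) and Tapbp in adult cells minus eCSCs (-0.14). Median scaling moved the median of all genes to 0.16 for YFP-positive minus adult cells, -0.49 for YFP-positive cells minus eCSCs and -0.68 for adult cells minus eCSCs. It put 73.1%, 34.9% and 29.4% of calls higher, against 45.1%, 47.1% and 47.6% as reported, and called 3083 genes between the cardiomyocyte groups, against 5063. With it the class I median was 0.29 for YFP-positive minus adult cells and 0.46 for adult cells minus eCSCs, and the class II median for adult cells minus eCSCs was -0.0089. The class I median over eCSCs was smaller in YFP-positive and adult cells without background correction (0.28 and 0.33), with normexp at an offset of 50 (0.41 and 0.45), in the series matrix (0.36 and 0.37) and with no filter on dim probes (0.032 and 0.078, over all 32 genes). Array weights, lowest for YFP-positive array 2 (0.443) and eCSC array 3 (0.469), called 9 class I genes between the cardiomyocyte groups and 7 class II genes between adult cells and eCSCs. With detection required on all 9 arrays, 1 class II gene could be tested and 0 were called in either comparison with eCSCs. Leaving out 1 array gave 0 to 1 class II calls between the cardiomyocyte groups and a class I median of 0.65 to 0.85 for YFP-positive cells minus eCSCs. Where no cause is shown by the setting itself, the cause was not tested. No clear pairing by replicate number was seen: deviations of 9 same-numbered pairs correlated at -0.06 to 0.12, with 1 over 0.1. With 3 arrays a group, such weak correlations cannot show that the samples were unpaired. With the replicate block 5 class I and 0 class II genes were called between the cardiomyocyte groups, and none of the 63 gene calls changed. Genes near background, such as H2-Aa, Tap1, H2-Q6 and H2-Q8, are limited by their signal.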
